A study of Homo sapiens with 12 samples.

Results

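The genes described here are an interferon ligand of type III, IFNL1, an interferon ligand of type I, IFNB1, and the receptor chains IFNAR1, IFNAR2, IFNLR1, IFNGR1, IFNGR2, IL10RA and IL10RB, which make 9 of the 19775 genes with a probe set of their own on these arrays. They were measured in U937 (human monocytic cells, first grown from a histiocytic lymphoma), electroporated with a plasmid for PR2VR, for PRWT or for GFP alone. PRWT is the wild-type PML-RARA, the fusion of acute promyelocytic leukemia. PR2VR is read here as the protease-resistant fusion of the study's title, although its own label calls it wild type too. GFP-positive cells were sorted after 9 h or 6 h, and each of the 6 combinations of construct and hour was measured on 2 Affymetrix arrays, which gives 4 arrays of PR2VR, 4 of PRWT and 4 of GFP cells.

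All groups share the line, the electroporation and the sort for GFP, so all values come from cells that had taken up plasmid DNA, and cells without plasmid are not among them. The titles count hours after infection for the fusion cells and hours after transfection for the GFP cells, so any difference in procedure cannot be told apart from the comparison of fusion with GFP cells. The labels do not say that replicates came from separate electroporations, and the p-values then reflect the scatter of these arrays alone, part or all of which may be technical. In bulk RNA such as this, fewer expressing cells and less RNA per cell cannot be told apart.

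The 9 genes were chosen as a family with earlier results of these data known, and among them IFNL1 had been called lower in fusion cells. Its differences between fusion and GFP cells are therefore given as a description with no test. Each gene is represented by the probe set selected on its measured values, as the one with the highest mean log2 signal over the 12 arrays, out of 17 probe sets for the 9 genes. All 9 passed the filter on low values, a mean log2 of 7.85 or a signal of 169. IFNLR1 came closest to it with a mean log2 of 8.77, a signal of 373, and the other IFNLR1 probe set lay outside it with a signal of 25.4.

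Interferons are secreted proteins that infected or nucleic acid-sensing cells release to induce antiviral genes in themselves and their neighbours. Type I interferons bind a receptor of IFNAR1 and IFNAR2, type III interferons a receptor of IFNLR1 and IL10RB, and the type II interferon a receptor of IFNGR1 and IFNGR2, while IL10RA and IL10RB form the receptor of the cytokine IL10. Janus kinases on these chains pass the signal on. Foreign DNA in the cell is a known trigger of type I and type III interferon genes, which act through interferon regulatory factors and NF-kB at their promoters.

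The promoters of both ligands are shown because they carry known sites of these factors. A window of 250 bases before to 50 bases after the start site was available for 8 of the 9 genes, from RefSeq on GRCh38.p14, with no window for IFNAR2. Capitals mark the matches to the interferon regulatory factor motif (GAAA, any 2 bases, GAAA) in IFNL1 (chr19:39296157-39296456, plus strand) and to the NF-kB motif (GGGA, any 2 bases, TTCC) in IFNB1 (chr9:21077893-21078192, minus strand), each searched on both strands.
IFNL1: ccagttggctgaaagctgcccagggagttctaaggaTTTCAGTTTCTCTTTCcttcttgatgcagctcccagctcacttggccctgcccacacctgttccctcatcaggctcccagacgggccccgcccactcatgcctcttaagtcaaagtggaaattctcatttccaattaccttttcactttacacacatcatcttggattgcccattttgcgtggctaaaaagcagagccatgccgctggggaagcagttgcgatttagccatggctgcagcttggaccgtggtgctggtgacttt
IFNB1: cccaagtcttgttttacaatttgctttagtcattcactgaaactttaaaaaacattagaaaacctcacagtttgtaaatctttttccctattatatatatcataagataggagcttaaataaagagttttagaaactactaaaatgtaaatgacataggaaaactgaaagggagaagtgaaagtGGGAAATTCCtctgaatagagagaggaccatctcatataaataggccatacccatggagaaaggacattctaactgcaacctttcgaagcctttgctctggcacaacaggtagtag
The IFNL1 window held 2 matches to the interferon regulatory factor motif, which overlap each other on the reverse strand and begin at bases -214 and -208 from the start site. This motif was found in 3.57% of the 35116 promoter windows of the same length. The IFNB1 window held 1 match to the NF-kB motif, at base -66, a motif found in 1.61% of windows. There were 0 matches to the NF-kB motif in IFNL1 and 0 to the interferon regulatory factor motif in IFNB1. These motifs have a fixed spacing and can miss sites, so a window without a match is not shown to lack a site. Among the receptors, IFNGR2 held a match to the NF-kB motif at base -99 and IL10RA a match to the AP-1 motif TGANTCA at base -73, found in 7.71% of windows. The interferon-gamma activated sequence TTCNNNGAA, found in 7.66% of windows, was matched in IFNB1, IFNLR1 and IL10RB. TTCNNNGAA and TGANTCA read the same on both strands, so each of their matches was counted once. A match is a description of the letters in the window and not evidence of binding.

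The deposited values are MAS5 signals on a linear scale, with a trimmed mean of 1500.2 on every array, and the number of arrays limits their precision. Differences are on the scale log2(signal + 62.5), with an offset at the 20th percentile of the deposited values, and a gene was called where its Benjamini-Hochberg adjusted p from limma over 13959 genes was under 0.05. RARA had signals of 9281 to 41097 in PR2VR cells, 11971 to 58985 in PRWT cells and 48.2 to 309 in GFP cells. The lowest value of each fusion was on its array of 6 h number 2, and all other fusion arrays were at 29626 or above. The 3 arrays of 9 h number 2 stood apart on the first principal component (32.8% of the variance), with GAPDH 3'/5' signal ratios of 2.21 to 2.75 against 3.82 to 12.9 on the other arrays. Of 13 monocytic and myeloid markers, 11 had a probe set and 10 passed the filter, among them ITGB2 and LYZ with mean signals of 9708 and 9575. The sum of this list ranged from 14278 to 35927 in PR2VR cells, 18713 to 43037 in PRWT cells and 14841 to 37984 in GFP cells. Of the 38 measured markers in this and 5 other lists, 0 were listed at a signal of 0 on any array. Not all of the 38 passed the filter, and of those that did, 0 were called between fusion and GFP cells. Summed markers of T and NK cells ran from 2697 to 11859 in PR2VR cells, 4563 to 14114.1 in PRWT cells and 4358 to 14114.3 in GFP cells. Those of plasmacytoid dendritic cells ran from 6090 to 7441, 4515.5 to 14293 and 5407 to 8711, in the same order. Those of B cells ran from 4864 to 6879.8, 4310 to 11492 and 3662 to 17696. On GFP 9 h number 1 the B cell gene PAX5 alone had 16215. Single genes of these lists had mean signals above all measured myeloid markers but ITGB2 and LYZ. They were NKG7 at 6003, TCF4 at 5514 and PAX5 at 5540.

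IFNL1, which encodes interferon lambda 1, was lower in PML-RARA cells than in GFP cells in each of the 4 sets of arrays that share an hour and a replicate number. Its signals in PR2VR cells were 3372 and 3811 at 9 h and 762 and 2393 at 6 h. In PRWT cells they were 2257 and 4796 at 9 h and 846 and 7158.5 at 6 h. In GFP cells they were 7960.4 and 6889 at 9 h and 2834.5 and 19089.8 at 6 h. At 9 h the fusion arrays lay below both GFP arrays, while at 6 h the higher PRWT array lay above the lower GFP array. The order therefore held within sets but not over all arrays.

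The mean log2 signal of IFNL1 was 11.15 ± 1.02 in PR2VR cells, 11.52 ± 1.32 in PRWT cells and 12.86 ± 1.12 in GFP cells (SD, n = 4 each). The difference of both fusions from GFP was -1.53 ± 0.58 (SE), a level 34.7% of that in GFP cells on this scale. Within sets it was -1.51 and -0.68 at 9 h and -1.74 and -2.19 at 6 h, for numbers 1 and 2 in that order. It was -1.71 ± 0.67 for PR2VR and -1.35 ± 0.67 for PRWT, which share the GFP arrays. The value depended on the arrays at 6 h: without number 1 of the GFP cells it was -2.21, and without number 2 of the GFP cells -0.85. The pair of arrays at 6 h differed 3.14-fold in PR2VR cells, 8.46-fold in PRWT cells and 6.73-fold in GFP cells. Among the tested genes these gaps were wider than 87.2%, 99.77% and 99.86% in the same group. At 9 h the pair differed 1.13-fold in PR2VR cells, 2.12-fold in PRWT cells and 1.16-fold in GFP cells, wider than 17.7%, 76.2% and 21.4%. IFNL1 values correlated with the second principal component (15.8% of the variance) at r = 0.66 over the 12 arrays. With the GAPDH 3'/5' ratio they correlated at r = 0.13. The part of array quality in the IFNL1 pattern was not tested. By mean log2 level the groups ran GFP 9 h, GFP 6 h, PR2VR 9 h, PRWT 9 h, PRWT 6 h and PR2VR 6 h, and the ranges of neighbours in this order overlapped.

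**Figure D1:**
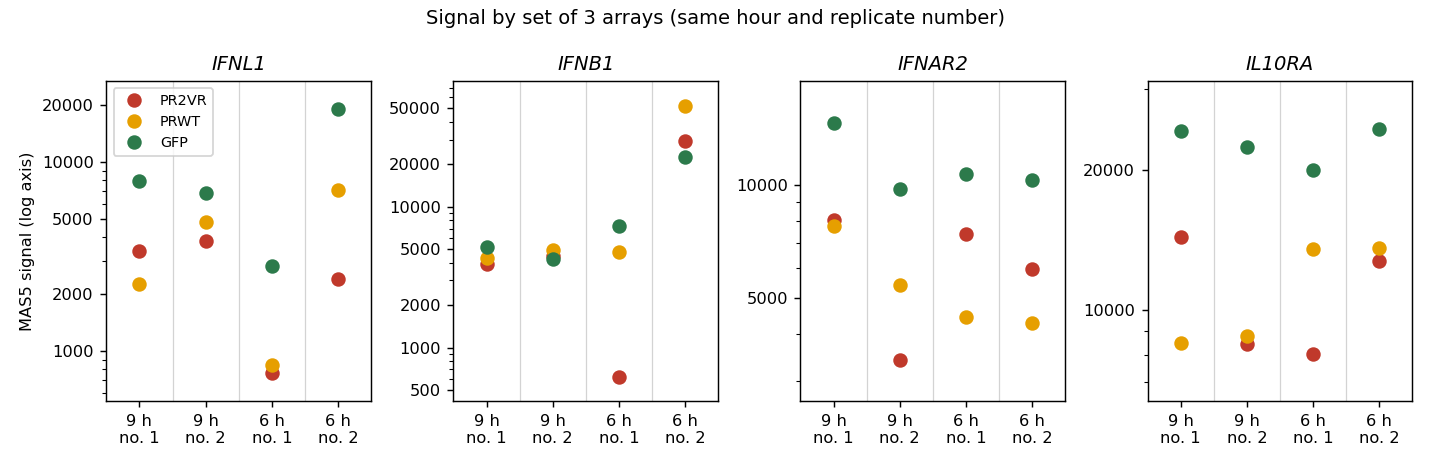
MAS5 signal (log axis) of IFNL1, IFNB1, IFNAR2 and IL10RA in PR2VR, PRWT and GFP cells, each point 1 array, grouped by the 4 sets of 3 arrays that share an hour and a replicate number. IFNL1, IFNAR2 and IL10RA were highest in GFP cells in 4 of 4 sets by the probe sets shown. IFNB1 was at 22569 to 52293 on the arrays of 6 h number 2 and at 620.3 to 7301 on all others.

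The plot of signals by set shows that IFNB1, which encodes interferon beta, did not follow IFNL1. IFNB1 signals in PR2VR cells were 3927 and 4478 at 9 h and 620.3 and 29223 at 6 h. In PRWT cells they were 4318 and 4955 at 9 h and 4743.5 and 52293 at 6 h. In GFP cells they were 5196.5 and 4233 at 9 h and 7301 and 22569 at 6 h. The 3 arrays of 6 h number 2 were the highest for every construct, and the array of 6 h number 1 in PR2VR cells was the lowest of the 12. At 9 h the 6 arrays lay between 3927 and 5196.5 and the constructs overlapped.

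The mean log2 signal of IFNB1 was 12.09 ± 2.22 in PR2VR cells, 13.07 ± 1.74 in PRWT cells and 12.94 ± 1.07 in GFP cells (SD, n = 4 each). Both fusions differed from GFP by -0.35 ± 0.82, with a 95% interval from -2.13 to 1.42 (limma adjusted p = 1.00). The sign turned when single arrays were left out, to 0.32 without PR2VR 6 h number 1, 0.08 without PRWT 6 h number 1 and 0.05 without GFP 6 h number 2. Within sets IFNB1 was lower in fusion cells in 2 of 4 sets. The gap between both arrays of PR2VR at 6 h was 47.1-fold, wider than that of 99.99% of the tested genes in that group. It was 11.02-fold in PRWT cells at 6 h, wider than 99.96% of genes, and 3.09-fold in GFP cells at 6 h, wider than 95.9%. IFNB1 values correlated with the second principal component (15.8% of the variance) at r = 0.97 over the 12 arrays, and on that component the arrays of 6 h number 2 lay at 36.8 to 41.1 and PR2VR 6 h number 1 at -65.2. With the GAPDH 3'/5' ratio IFNB1 correlated at r = 0.14. The genes most like IFNB1 over the 12 arrays were SAT2, RPL23A, MDH1, RPS15A and IFT20 (Pearson r = 0.97, 0.95, 0.95, 0.92 and 0.91). With set means removed these correlations were 0.97, 0.89, 0.85, 0.87 and 0.94. The part of array quality in the IFNB1 pattern was not tested. By mean log2 level IFNB1 ran PRWT 6 h, GFP 6 h, GFP 9 h, PRWT 9 h, PR2VR 6 h and PR2VR 9 h, and of these neighbours the pair of GFP groups did not overlap.

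**Figure D2:**
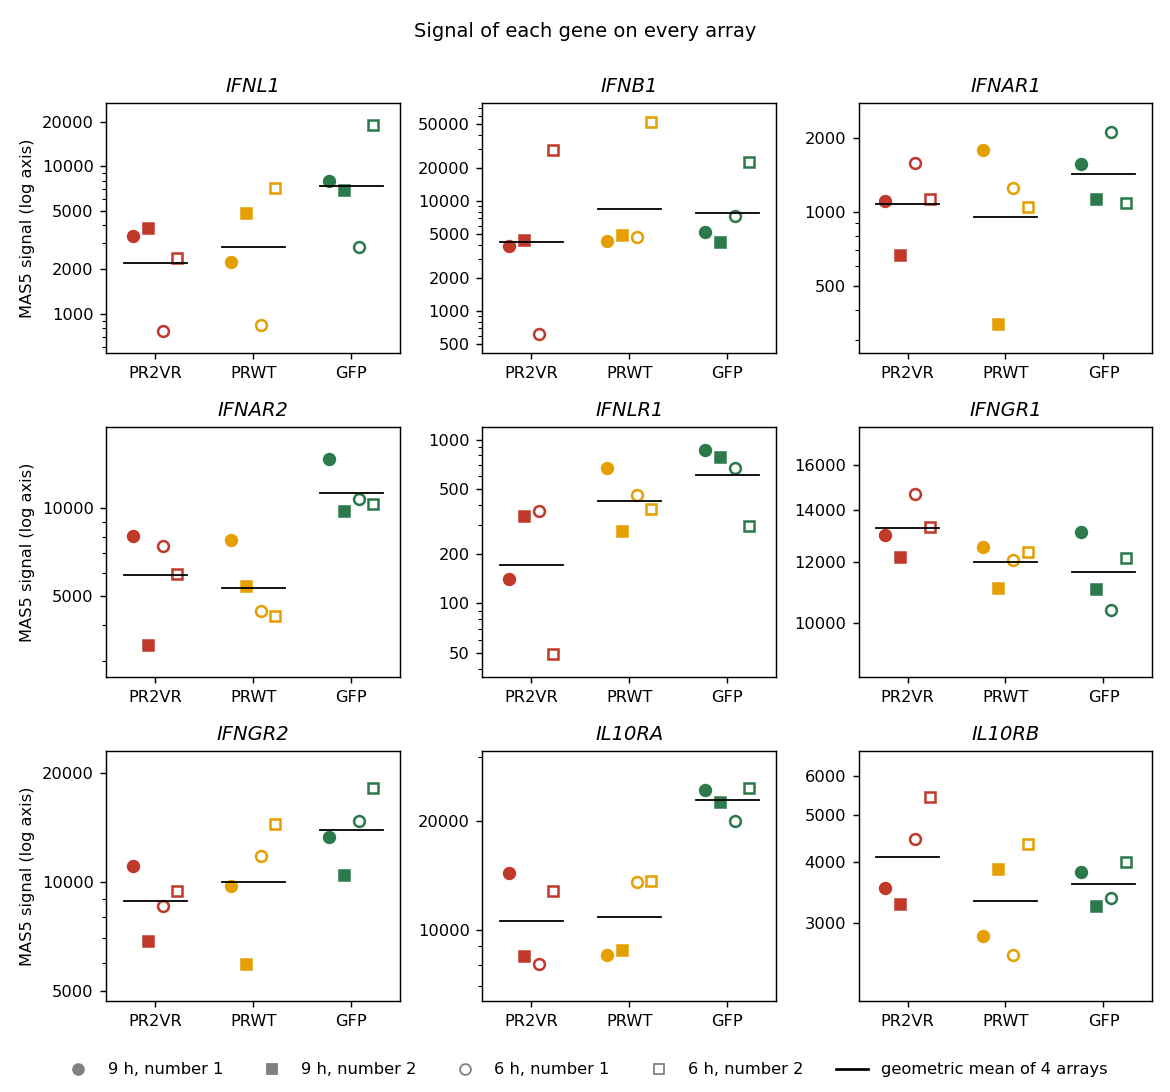
MAS5 signal (log axis, own range per panel) of the 9 genes on all 12 arrays, in PR2VR, PRWT and GFP cells, with hour and replicate number given by the symbol and the geometric mean of 4 arrays by the line. For IL10RA, and for IFNAR2 by the probe set shown, every fusion array lies below every GFP array, and the other genes overlap.

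IL10RA, the ligand-binding chain of the IL10 receptor, had the clearest separation of the receptor chains. Its signals in PR2VR cells were 14363 and 8449 at 9 h and 8049 and 12767 at 6 h. In PRWT cells they were 8496 and 8787 at 9 h and 13550.2 and 13601 at 6 h. In GFP cells they were 24327 and 22471 at 9 h and 20015 and 24588 at 6 h. All 8 fusion arrays lay below all 4 GFP arrays, and the fusions overlapped each other.

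The mean log2 signal of IL10RA was 13.38 ± 0.42 in PR2VR cells, 13.41 ± 0.37 in PRWT cells and 14.48 ± 0.14 in GFP cells (SD, n = 4 each). Both fusions differed from GFP by -1.09 ± 0.24 (SE), a level 47.1% of that in GFP cells. IL10RA did not pass without a block for the set (limma adjusted p = 0.37) and passed with it (-1.09 ± 0.17, limma adjusted p = 0.032). Within sets the difference ran from -1.38 to -0.90. PR2VR differed from GFP by -1.10 (95% interval -1.69 to -0.51) and PRWT by -1.07 (-1.66 to -0.48), both against the same GFP arrays.

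IFNAR2, the chain with the main affinity for type I interferons, was also lower on every fusion array by its selected probe set. IFNAR2 signals in PR2VR cells were 8065 and 3411 at 9 h and 7402 and 5979 at 6 h. In PRWT cells they were 7759 and 5407 at 9 h and 4444.5 and 4282 at 6 h. In GFP cells they were 14697 and 9789 at 9 h and 10738.5 and 10341 at 6 h. The highest fusion array, at 8065, lay below the lowest GFP array, at 9789.

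The mean log2 signal of IFNAR2 was 12.54 ± 0.55 in PR2VR cells, 12.39 ± 0.39 in PRWT cells and 13.46 ± 0.26 in GFP cells (SD, n = 4 each). Both fusions differed from GFP by -0.996 ± 0.273, which is 50.1% of the GFP level. IFNAR2 did not pass without the block (limma adjusted p = 0.75) and passed with it (-0.996 ± 0.170, limma adjusted p = 0.043). Within sets the difference ran from -1.18 to -0.89. The other 2 IFNAR2 probe sets differed less, by -0.47 ± 0.28 and -0.46 ± 0.25, and neither passed with the block (limma adjusted p = 0.74 and 0.70). On both of them fusion and GFP arrays overlapped. On the first, PRWT 6 h number 2 at 6156 lay above GFP 6 h number 1 at 4445.5. On the second, PR2VR 9 h number 1 at 5817 lay above GFP 9 h number 1 at 4650. IFNAR2 lies beside IL10RB, IFNAR1 and IFNGR2 as consecutive protein-coding genes in the RefSeq table, and the table also holds a readthrough gene of IFNAR2 and IL10RB, whose transcripts were not told apart here.

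Without the block, 0 of the 9 genes were called between fusion and GFP cells, and the background was 1 gene of 13959 (0.00716%), RARA itself, with 439 genes at an unadjusted p under 0.05, among them IFNAR2, IFNLR1, IFNGR2 and IL10RA. With the set as a block, 44 genes were called (0.315%), 18 higher and 26 lower in fusion cells. IL10RA and IFNAR2 were among them. These counts include IFNL1, which is given here without a test. The replicate numbers pair the arrays by the correlation of their deviations, as given with the processing. The calls of IL10RA and IFNAR2 were lost with the block and all 12 arrays where the variance was fitted without a trend (limma adjusted p = 0.16 for each), and without the 3 arrays of 9 h number 2 (0.91 and 1.00). With the block and each of the 12 arrays left out in turn, each gene passed in 2 fits, those without an array of PR2VR at 6 h, and missed in 10, with adjusted p from 0.065 to 0.44 for IL10RA and 0.10 to 0.57 for IFNAR2. Their differences stayed between -1.18 and -0.99 and between -1.08 and -0.91 in these 12 fits. Of the 13959 genes, 35 (0.251%) had every fusion array below every GFP array, and 2 of the 9, IL10RA and IFNAR2, were among them. Each gene was counted by its selected probe set.

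IFNGR2, the signalling chain of the type II receptor, was lower in fusion cells in 4 of 4 sets but was not called. Its signals were 11062 and 6866.5 at 9 h and 8592.5 and 9473 at 6 h in PR2VR cells. They were 9765 and 5958 at 9 h and 11797.5 and 14433 at 6 h in PRWT cells, and 13308 and 10474 at 9 h and 14741.5 and 18118 at 6 h in GFP cells. The groups overlapped, with PRWT 6 h number 2 above 2 of the 4 GFP arrays. Both fusions differed from GFP by -0.56 ± 0.24 (limma adjusted p = 1.00, and 0.23 with the block). The other chain of this receptor, IFNGR1, which binds the ligand, was the steadiest of the 9 genes, with signals from 10378 to 14697, a 1.42-fold range. It had 12157 to 14697 in PR2VR cells, 11081 to 12529 in PRWT cells and 10378 to 13107 in GFP cells, and differed by 0.12 ± 0.21 between both fusions and GFP (95% interval -0.33 to 0.56). The other 2 IFNGR1 probe sets went the other way, by -0.37 ± 0.27 and -0.45 ± 0.33.

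IFNLR1, the chain that only type III interferons use, had low signals that varied between arrays. They were 141.5 and 341 at 9 h and 365 and 49.1 at 6 h in PR2VR cells. They were 668 and 277 at 9 h and 462 and 379 at 6 h in PRWT cells, and 863 and 783 at 9 h and 669 and 297 at 6 h in GFP cells. The 4 PR2VR arrays were at or below 365 and 3 of the 4 GFP arrays above 668, with GFP 6 h number 2 among the fusion values. Both fusions differed from GFP by -0.94 ± 0.43 (limma adjusted p = 1.00, and 0.47 with the block), and their mean was lower in 4 of 4 sets. PRWT alone lay above GFP at 6 h number 2, by 0.30. IL10RB, the second chain of the type III receptor and of the IL10 receptor, had 3285 to 5429 in PR2VR cells, 2582 to 4349 in PRWT cells and 3255 to 4005 in GFP cells. It differed by 0.04 ± 0.24 (95% interval -0.49 to 0.56) and was below GFP in 1 of 4 sets.

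IFNAR1, the signalling partner of IFNAR2, had 667.5 to 1586 in PR2VR cells, 349 to 1794 in PRWT cells and 1087 to 2121 in GFP cells. Its groups overlapped, and the difference of both fusions from GFP was -0.46 ± 0.38 (95% interval -1.28 to 0.36, limma adjusted p = 1.00). It was -0.19 without PRWT 9 h number 2 and -0.23 without GFP 6 h number 1, against -0.73 without PRWT 9 h number 1 and -0.69 without GFP 6 h number 2. The other 3 IFNAR1 probe sets differed by -0.22, -0.01 and 0.65, so the probe sets disagreed in direction. In all, 7 of the 9 genes had a value below 0 and the median was -0.56, beside a median of -0.02 and 52.4% below 0 over all tested genes. By the mean of both fusions, IFNL1, IFNAR2, IFNLR1, IFNGR2 and IL10RA were lower in 4 of 4 sets, as were 10.7% of all tested genes. The count below 0, the median and this list all include IFNL1, which was known beforehand to be lower. They are therefore a description, and nothing is read from them against all tested genes.

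**Figure D3:**
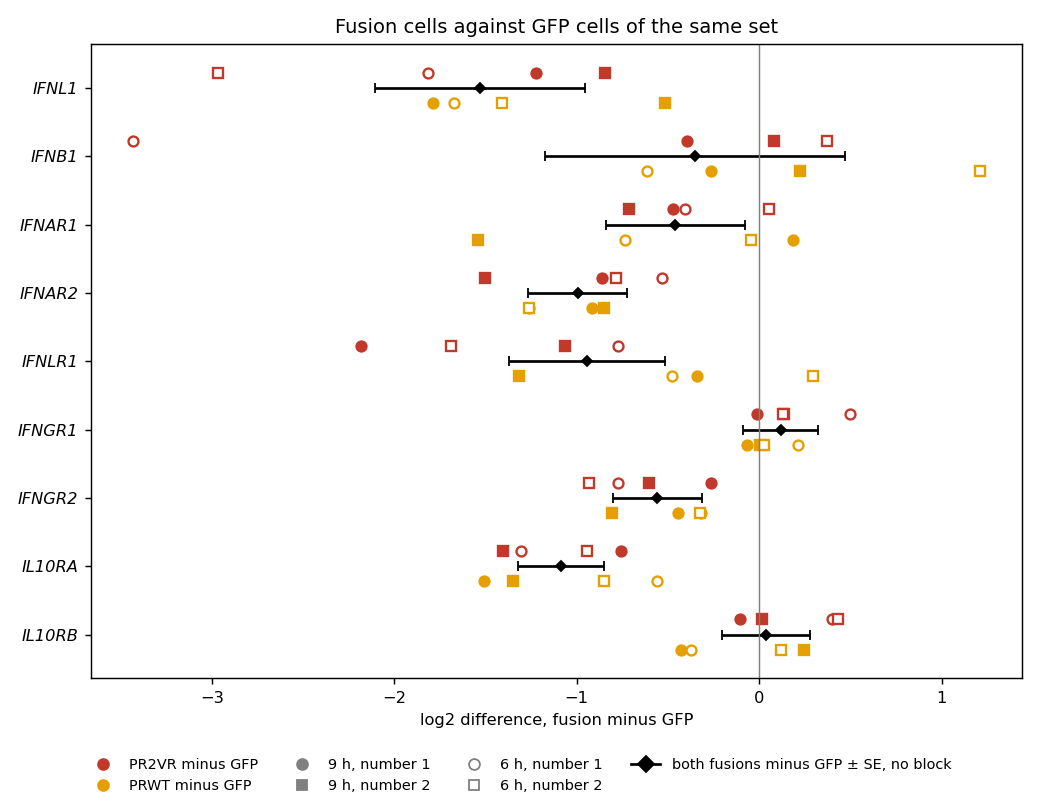
Log2 difference of PR2VR and PRWT from the GFP array of the same set for each of the 9 genes (coloured symbols, hour and number as in the legend), with both fusions minus GFP ± SE from the fit without a block (black). Every symbol of IL10RA, IFNAR2, IFNGR2 and IFNL1 lies left of 0, while those of IFNLR1, IFNB1, IFNGR1, IFNAR1 and IL10RB lie on both sides.

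**Figure D4:**
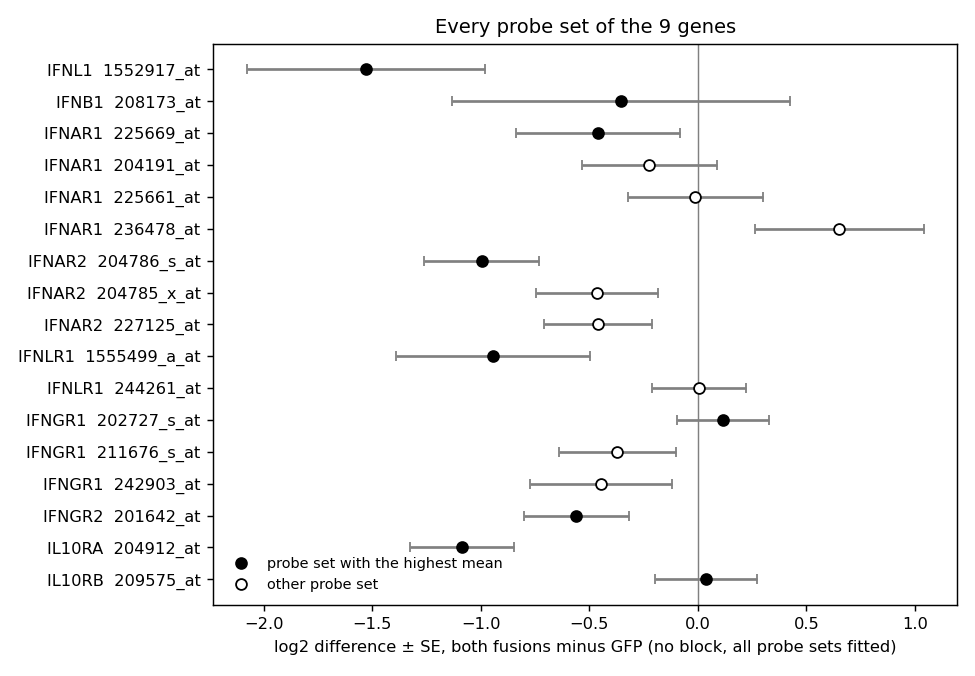
Log2 difference of both fusions from GFP ± SE for all 17 probe sets of the 9 genes, fitted without a block among all probe sets, with the probe set of highest mean filled. The 3 probe sets of IFNAR2 lie left of 0, and those of IFNAR1 and IFNGR1 fall on both sides.

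PR2VR and PRWT cells were compared directly to ask whether the form of the fusion altered these genes, and 0 of the 9 and 0 of 13959 genes (0%) were called by limma, with or without the block. At an unadjusted p under 0.05 there were 216 genes and 0 of the 9 without the block, and 957 genes and 1 of the 9, IFNLR1, with it. IFNB1 had the widest interval, with PR2VR minus PRWT at -0.98 (95% interval -3.03 to 1.06). IFNLR1 differed by -0.97 (-2.04 to 0.10, and -1.86 to -0.07 with the block, limma adjusted p = 0.72) and IFNL1 by -0.36 (-1.80 to 1.07). IFNGR1 differed by 0.14 (-0.37 to 0.66) and IL10RA by -0.04 (-0.63 to 0.55). IFNAR2 differed by 0.15 (-0.53 to 0.83), IFNAR1 by 0.15 (-0.80 to 1.10), IFNGR2 by -0.17 (-0.78 to 0.44) and IL10RB by 0.30 (-0.31 to 0.90).

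Set against GFP on its own, PRWT gave 1 called gene (0.00716%) with and without the block, and 0 of the 9. PR2VR gave 1 called gene (0.00716%) and 0 of the 9 without the block, and 41 genes (0.294%) with it. IL10RA and IFNAR2 missed the threshold with the block (limma adjusted p = 0.053 and 0.096). The intervals of PR2VR minus PRWT above show that no difference between the constructs was resolved for IL10RA or IFNAR2.

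For the course over time, 9 h was compared with 6 h over the 3 constructs. Of the 13959 genes 11 (0.0788%) were called without a block, none of the 9 among them, and 0 (0%) with the set as a random block, with 766 genes and 0 of the 9 at an unadjusted p under 0.05. IFNGR2 differed by -0.43 ± 0.23 (limma adjusted p = 0.39), IFNB1 by -1.09 ± 0.77 (0.51) and IFNL1 by 0.58 ± 0.54 (0.61). With 1 array left out in turn, IFNB1 ranged from -1.99 without PR2VR 6 h number 1 to -0.19 without PR2VR 6 h number 2, and IFNL1 from 0.086 without PRWT 6 h number 1 to 1.08 without PRWT 6 h number 2. IFNGR2 was lower at 9 h on both arrays than on both arrays at 6 h in PRWT and in GFP cells, but not in PR2VR cells. IFNL1 was higher on both arrays at 9 h in PR2VR cells, where it differed by 1.36, against 0.39 in PRWT cells and 0.00 in GFP cells. Both arrays at 9 h also lay below both at 6 h for IFNAR1, IFNGR1 and IL10RB in PR2VR cells. The same held for IL10RA in PRWT cells and IFNB1 in GFP cells. They lay above for IFNAR2 in PRWT cells and IFNLR1 in GFP cells. These separations set 2 arrays against 2, and their share over all genes was not computed, so nothing is read from them. All genes had a median of 0.13 in this comparison, and 0.05 after quantile normalization.

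The fusion comparison was also made at each hour. At 9 h it called 1 gene (0.00716%) and 0 of the 9, and at 6 h 1 gene (0.00716%) and 0 of the 9, with and without the block. IL10RA differed from GFP by -1.26 ± 0.33 at 9 h and -0.92 ± 0.33 at 6 h, and IFNAR2 by -1.03 ± 0.39 and -0.96 ± 0.39. The change of this difference between the hours was called for 0 of 13959 genes (0%), 106 of them at an unadjusted p under 0.05. It was -0.34 ± 0.47 for IL10RA, -0.07 ± 0.55 for IFNAR2 and 0.87 ± 1.15 for IFNL1, where the value is 9 h minus 6 h.

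The genes whose log2 values were most like those of IFNL1 over the 12 arrays were the complement gene C3 (Pearson r = 0.93), the ubiquitin-like interferon-stimulated gene ISG15 (0.92), the antiviral gene OASL (0.92), CD38 (0.90), an enzyme that degrades NAD, and the transcription factor ATF5 (0.89). The arrays share their sets, and with the mean of each set removed these correlations were 0.93, 0.84, 0.91, 0.80 and 0.91. ISG15 had signals of 65135, 70613, 26141 and 66119 in PR2VR cells, 89743, 88232, 35393 and 136632 in PRWT cells and 106648, 98177.5, 62778 and 138163 in GFP cells, each in the order 9 h numbers 1 and 2 and 6 h numbers 1 and 2. It was lowest in 6 h number 1 for every construct, as IFNL1 was. IFNL1 and IFNB1 correlated at r = 0.56, and at 0.29 with set means removed. Of the receptor chains, IFNGR2 (0.86), IL10RA (0.79) and IFNAR2 (0.69) were the most like IFNL1 with set means removed, and IFNGR1 (-0.56) the least. With set means kept, these correlations were 0.39, 0.60, 0.34 and -0.33. Removing set means leaves the difference of fusion from GFP cells in the values, so these correlations are not separate from the differences given above.

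The genes around these ligands and receptors were taken from lists of known pathway members. Of 26 other ligands of the interferon and IL10 families, 22 had a probe set and 14 passed the filter. None of the 14 was called with or without the block, 10 lay below 0 and the median was -0.17, beside -0.02 over all tested genes. IFNA8 and IFNA2, type I interferons, differed by -1.42 ± 0.46 and -1.15 ± 0.49 between both fusions and GFP (limma adjusted p with the block = 0.12 and 0.14), and IL22 by -0.63 ± 0.38. The interferon alpha genes are near copies of each other, so which of them a probe set measured is uncertain. Of 5 other receptors of the family 3 passed the filter, 2 below 0 and 0 called, with F3, the tissue factor, at -0.46 ± 0.40, IL20RB at -0.35 ± 0.32 and IL22RA1 at 0.05 ± 0.38.

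Of 7 kinases and factors downstream of the receptors, 5 were measured and passed the filter, 3 below 0 with a median of -0.01 and 0 called. JAK2, which serves IFNGR2, differed by -0.80 ± 0.30 (limma adjusted p with the block = 0.20), IRF9, part of the factor that type I and type III interferons activate, by -0.43 ± 0.35 and TYK2, which serves IFNAR1 and IL10RB, by 0.19 ± 0.33. Of 26 genes that induce interferon genes 25 passed the filter, 14 below 0 with a median of -0.04 and 0 called. Among them the transcription factor IRF1 differed by -1.07 ± 0.38, the RNA helicase DHX58 by -1.19 ± 0.60 and the RNA sensor IFIH1 by -0.54 ± 0.31 (limma adjusted p with the block = 0.15, 0.074 and 0.45).

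All 9 feedback inhibitors passed the filter, 7 below 0 with a median of -0.08. SOCS1, which blocks Janus kinases, was called lower with the block (-1.84 ± 0.26, limma adjusted p = 0.019) and not without it (0.37). The call was lost with the block but no variance trend (0.10), without the 3 arrays of 9 h number 2 (0.26), and in 8 of 12 fits that left out 1 array (0.057 to 0.30). Its other probe sets, with mean signals of 209, 89.6 and 379, differed by -1.42, 0.76 and 0.18, so they disagreed in direction. The phosphatases PTPN2 and PTPN6 differed by 0.22 ± 0.23 and -0.27 ± 0.29. All 30 interferon-stimulated genes passed the filter, 26 below 0 with a median of -0.38, beside 52.4% below 0 over all tested genes, and 0 were called without the block and 1 with it. That gene was ISG20, an exonuclease, at -1.20 ± 0.20 with the block (limma adjusted p = 0.040, and 1.00 without it). That call too was lost with the block but no variance trend (0.16), without the 3 arrays of 9 h number 2 (0.68), and in 10 of 12 fits that left out 1 array (0.088 to 0.51). Its other probe set differed by -1.34. The guanylate-binding protein GBP1 differed by -1.12 ± 0.37 and XAF1, an antagonist of an apoptosis inhibitor, by -0.91 ± 0.34 (limma adjusted p with the block = 0.16 and 0.32).

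**Figure D5:**
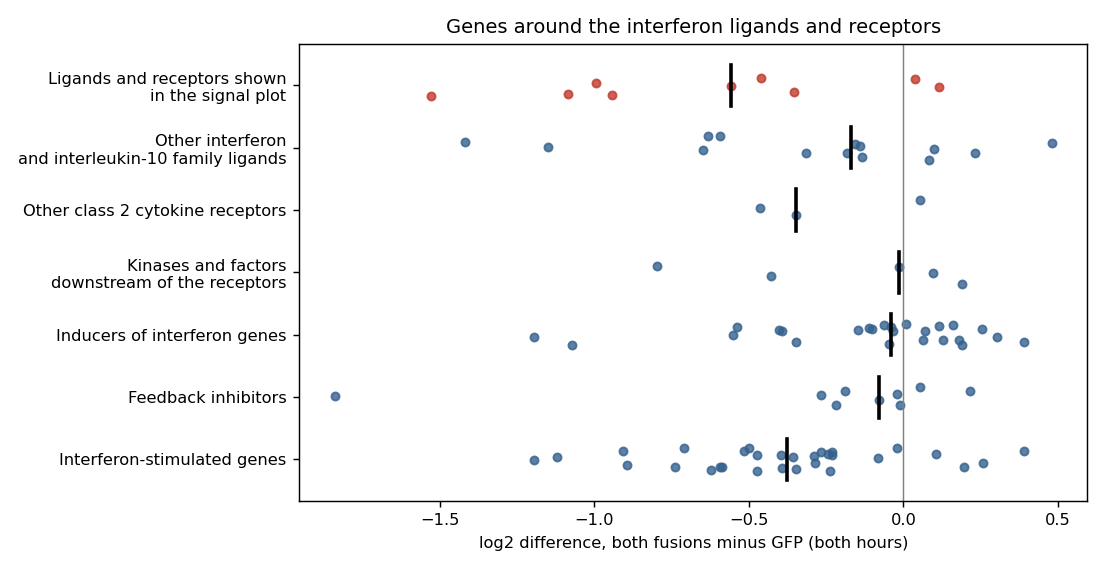
Log2 difference of both fusions from GFP, both hours, for the 9 genes (red) and for the tested genes of 6 pathway lists (blue), each point 1 gene, with the median of each row as a black bar. The medians run from -0.56 for the 9 genes and -0.38 for the interferon-stimulated genes to -0.01 for the kinases and factors downstream. The 9 genes include IFNL1, which was known beforehand to be lower.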

How the data were processed

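RNA of 12 samples was measured on Affymetrix arrays. Per the submitters' processing notes, the authors computed the deposited intensity values with MAS5 (version not given in the sources used here). These deposited intensity values had a common trimmed mean and were not scaled further. Of 54613 probe sets that are not controls, 41091 had 1 symbol in the platform annotation, 1801 several and 11721 none; the RefSeq table changed 0 symbols. No pair of arrays shared more than 0.0677% of its values.

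Values were taken as log2(signal + 62.5), with 62.5 the 20th percentile of all values; this scale understates changes at low signals. The planned wording, the percentile without control probe sets (62.6), was run as an alternative. Per gene the probe set with the highest mean was kept, and 13959 genes at or above the 40th percentile of probe sets were tested. limma 3.58.1 (R 4.3.3) fitted 1 mean per group over all 12 arrays with moderated variances following a trend (6 residual degrees of freedom), 8 contrasts, and Benjamini-Hochberg adjustment over the tested genes. Two-sided 95% intervals are from the fit. The fit was tested on simulated data.

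Replicate numbers come from the titles. Deviations of same-numbered arrays correlated across genes at r = 0.56, 0.63 and 0.60 at 9 h and 0.21, 0.15 and 0.36 at 6 h between constructs, all over 0.1, so the numbers were taken to pair the arrays, more weakly at 6 h. The alternative fit adds the set as a block, leaving 4 residual degrees of freedom, or as a random block (correlation 0.41) for the comparison of hours. Other alternatives were the offset, filter, scaling, variance trend, probe sets, and arrays left out.

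The 9 genes, the pathway and marker lists and the tests were chosen with earlier results of these data known. Named are the 9 genes, up to 3 genes per pathway list with the smallest unadjusted p, and the 5 genes most like IFNL1. The 5 genes most like IFNB1 were added later, and RARA and single marker genes are also named. Pathway and marker genes with no probe set here were not analysed.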

Additional observations from a re-analysis of the deposited data

Results flagged for a closer look

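Each gene's 4 arrays per construct were examined for an array far from the others, which chance gives in about 1 of 20 groups. Of 27 such groups 1 stood out, IFNB1 in PRWT cells. The array of 6 h number 2 had a signal of 52292.7, against 4318 to 4955 on the other 3 PRWT arrays. IFNB1 was also highest on the 6 h number 2 array in PR2VR cells (29223) and in GFP cells (22569).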

How the results depend on the processing

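The tested differences of the 9 genes were recomputed under other settings, which gave 546 values, of which 518 kept their direction and side of the threshold, 26 turned sign and 2 (IFNAR2 and IL10RA) passed only with the replicate block. None of the 9 genes was called in the fit without a block, so a value could change side only by passing. The block with all arrays leaves each difference as it was, so no direction could turn there. The difference of IFNL1 from GFP, which has no test here, kept its direction in all 21 settings. The block, from the pairing of replicate numbers, gave for both fusions over GFP 44 called genes, 3 of them among the 9, against 1 and 0 without it, and for PR2VR over GFP 41 genes and 1 of the 9. Counts of called genes against GFP here include IFNL1 where it passed, from which nothing is read. For 9 h over 6 h the random block left 0 of 11 called genes. The block changed no other call on the 9 genes.

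With all probe sets in the fit, 5 were called for both fusions over GFP, 3 each for PRWT and PR2VR over GFP, and 2 each for 9 h over 6 h and for the fusions at 9 h. For 9 h over 6 h, 3 genes were called after quantile normalization and 2 without the variance trend, and IFNGR1 was 0.055 after quantile normalization. Without the 3 arrays of 9 h number 2, 0 genes were called for 9 h over 6 h and for the fusions at 9 h. IL10RB was then -0.062 for both fusions over GFP, IFNAR1 -0.22 and IL10RA 0.17 for PR2VR over PRWT, and IFNAR1 0.13 and IFNGR1 0.053 for 9 h over 6 h. The cause was not tested.

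With 1 array left out in turn and no block, both fusions over GFP ranged from -1.03 to 0.32 for IFNB1 and from -0.055 to 0.13 for IL10RB. PR2VR over PRWT ranged from -1.11 to 0.38 for IFNL1, -2.34 to 0.37 for IFNB1, -0.40 to 0.69 for IFNAR1, -0.16 to 0.46 for IFNAR2, -0.35 to 0.0074 for IFNGR2 and -0.23 to 0.16 for IL10RA. For 9 h over 6 h, IFNAR2 ranged from -0.067 to 0.34 and IFNGR1 from -0.074 to 0.0070. Called genes ranged from 1 to 9 for PR2VR over GFP and from 0 to 2 for PR2VR over PRWT, both highest without PR2VR 6 h number 2, and from 0 to 53 for 9 h over 6 h, highest without the same array.

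The fits with the block were varied after the data were seen. Without the variance trend, and without the 3 arrays of 9 h number 2, both fusions over GFP and PR2VR over GFP each gave 1 gene and 0 of the 9. Quantile normalization gave 2 of the 9 for PR2VR over GFP, and no filter gave 2 genes for PRWT over GFP. With 1 array left out, genes called ranged from 1 to 360 for both fusions over GFP (0 to 4 of the 9), 1 to 739 for PR2VR over GFP (0 to 4), 1 to 51 for PRWT over GFP (0 to 3), 0 to 303 for PR2VR over PRWT (0 to 1), 1 to 376 at 6 h (0 to 2), 1 to 34 at 9 h (0 to 1) and 0 to 30 for the change between hours (0). Every count above the one with all arrays came from leaving out PR2VR 6 h number 1 or 2. Offsets at the 5th and 40th percentiles and over probe sets that are not controls changed no call of the 9 genes.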
